A study of Mus musculus with 19 samples.

Results

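Clones 1 and 17 of male 129S1/SvImJ induced pluripotent stem cells (iPSC) were sequenced both in ESC/LIF medium and after transfer to 2iS medium. The 4 libraries of these clones were chosen by the titles of the samples, which give strain, sex, clone, passage and medium, out of 19 libraries in the series. Clone 1 was at passage 21 in ESC/LIF and passage 31 in 2iS, and clone 17 was at passage 20 in ESC/LIF and passage 30 in 2iS. ESC/LIF is a serum medium with leukemia inhibitory factor (LIF), and 2iS is the same serum medium with the GSK3B inhibitor CHIR and the MEK inhibitor PD0325901. Each 2iS library is 10 passages later than its ESC/LIF partner, so medium and passage cannot be told apart. These passages are those of the sample titles, and the study's text describes a different passage history for the move to 2iS. Each line is 1 clone, reprogrammed from pooled embryonic fibroblasts with a virus that carried Oct4, Klf4, Sox2 and Myc and was not excised, and depleted of feeder fibroblasts before RNA was collected. The 2 female 129S1/SvImJ iPSC clones in ESC/LIF, clone 5 at passage 19 and clone 8 at passage 17, took no side in the test of the medium and are given beside it as further levels in ESC/LIF. The remaining libraries are iPSC of NOD/ShiLtJ and WSB/EiJ and embryonic and epiblast stem cell lines.

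Mouse pluripotent cells are kept undifferentiated by LIF, which acts through STAT3, while FGF signalling through MEK and ERK moves them toward the formative and primed states of the epiblast. GSK3 is part of the complex that marks beta-catenin for breakdown, and its inhibition raises beta-catenin and relieves repression by TCF7L1 of naive genes such as Esrrb, Tfcp2l1 and Klf4. Blocking both kinases is known to make cultures of naive cells more uniform, and long MEK inhibition is known to lower DNA methylation.

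The authors counted 92996 to 226794 read pairs on genes per library, which is 1.44% to 1.52% of the uniquely aligned pairs. A count of 3 is 12.9 to 31.5 CPM (the usual per-library scaling of read counts), and lower levels rest on fewer counts than that. The library kit marks strand, and the strand setting of the counting is not given in the sources used here. Between 65.5% and 68.0% of the counts fell on genes that share exon bases with a neighbour on the other strand, so that a count cannot be assigned with certainty to the gene it is listed under. If the setting was opposite to that of the kit, which was not tested, this doubt extends to genes with no annotated neighbour on the other strand. The opposite-strand gene is therefore named beside the called genes described in detail, and every level below is a number of read pairs listed under a gene. Of the markers of pluripotent cells, Pou5f1, Sox2, Zfp42, Esrrb, Klf4, Tdgf1 and Dppa5a had enough counts to test and Nanog did not. Pou5f1 had 136 and 58 counts in ESC/LIF and 69 and 71 in 2iS, where, as in all pairs of values below, clone 1 comes first and clone 17 second. Of 23 markers of mesenchymal feeder cells, 13 had a count of 0 in all 4 libraries, Col1a2, Col3a1, Thy1, Twist2, Postn, Lum and Dcn among them. The other members, such as Col1a1 and Fbn1, had reads, and Tagln had enough to test (log2 fold change -0.25 ± 0.50, not called). The sum over the list was 112 and 168 CPM in ESC/LIF against 90.1 and 141 CPM in 2iS. At this depth a count of 0 does not show that a marker was absent.

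Of 2160 genes with enough counts to test, 120 (5.56%) differed between the media in edgeR's quasi-likelihood test at a Benjamini-Hochberg adjusted p under 0.05. Counts of 40 genes (1.85%) were higher in 2iS, and counts of 80 genes (3.7%) were lower. The median log2 fold change, 2iS over ESC/LIF, was 1.85 among the higher genes and -1.97 among the lower genes, against 0.01 over all genes tested. In bulk RNA, fewer cells that use a gene and less of its RNA per cell cannot be told apart. All 120 genes changed in the same direction in both clones with no overlap between the media. With 2 libraries per medium the test itself favours such genes, so this is not further evidence for the calls. Among all genes tested 1324 (61.3%) changed in the same direction in both clones and 1000 (46.3%) did not overlap. Lower genes reached larger changes, since 39 of the 80 fell to a log2 fold change of -2 or less and 13 of the 40 rose to 2 or more. The same fit called 0 genes between clone 17 and clone 1, with 88 at an unadjusted p under 0.05. The 4 libraries fitted alone called 1 gene between the clones and DESeq2 called 0, with 135 and 6 at an unadjusted p under 0.05.

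The p-values rest on the spread between single libraries of different clones and hold for these clones. That spread was estimated over all 12 iPSC libraries in the 6 groups of the fit, and not from the 4 compared libraries alone. The others are the female clones in ESC/LIF, female iPSC of NOD/ShiLtJ in 2iS and male and female iPSC of WSB/EiJ in 2iS. Male iPSC of NOD/ShiLtJ were left out of the fit. The p-values therefore assume that those strains and the other sex vary as the compared clones do. Each fit below that left out 1 library also left out the clone block. A call lost there cannot be put down to the library alone. The count of 120 fell to 58 without the ESC/LIF library of clone 1, to 54 without the 2iS library of clone 1, to 70 without the 2iS library of clone 17 and to 80 without the ESC/LIF library of clone 17. Of the 120 genes, 30 passed the test in each of these fits and 25 in none. DESeq2 on the 4 libraries called 22 genes, 18 of them lower in 2iS, so most of the 120 genes did not pass there. The last gene inside the threshold was Tbc1d10b (adjusted p = 0.0495) and the first outside was Polg (adjusted p = 0.0572), both named for this position only.

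**Figure D1:**
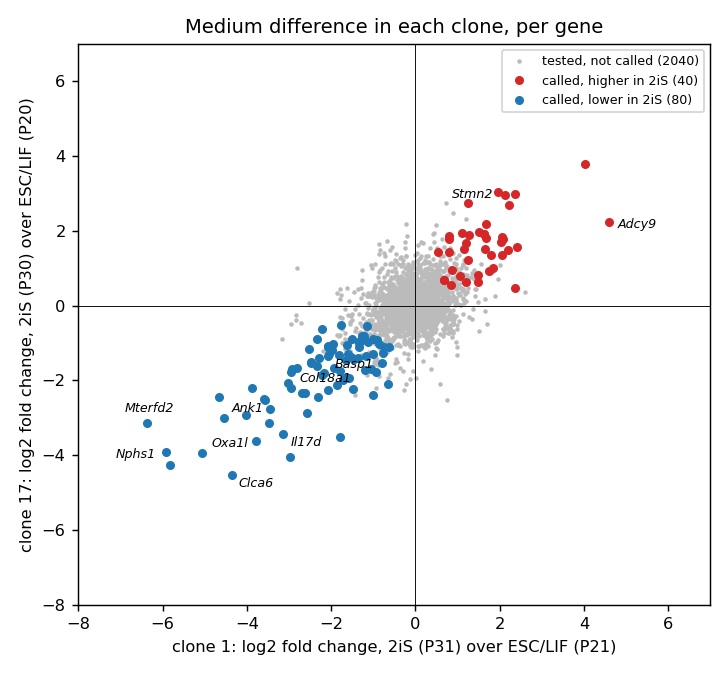
Log2 fold change of each of 2160 tested genes, 2iS over ESC/LIF, in clone 1 (x axis) and clone 17 (y axis), from CPM with a prior count of 2. Called genes (red, 40 higher; blue, 80 lower) lie in the quadrants where both clones moved the same way, and the lowest of them, such as Nphs1 and Mterfd2, lie further out in clone 1.

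The study named 8 genes for this comparison, and all 8 passed the test here, 6 lower and 2 higher in 2iS. These genes were picked on the same samples, so their count is not independent evidence of a direction. Nphs1 encodes nephrin, an adhesion protein of the immunoglobulin superfamily known from the slit diaphragm of the kidney filter. Its level was 752 and 651 CPM in ESC/LIF and 0 and 21.2 CPM in 2iS. Both ESC/LIF libraries stood far above both 2iS libraries (log2 fold change -5.85 ± 0.75, adjusted p = 1.23e-05, with the standard error after ±). The 2iS library of clone 1 held no read, and the fitted change was -9.72 without the 2iS library of clone 17 and -5.02 without that of clone 1. The ratio of summed counts, ESC/LIF over 2iS, was 63.4 with a 95% counting interval of 21.4 to 309.8. The locus lies at chr7:30458315-30487223 on the forward strand, and 11.8% of its exon bases overlap exons of the opposite-strand transcript listed as Nphs1as and a pseudogene. Nphs1as was lower too (log2 fold change -5.48 ± 0.58, adjusted p = 8.44e-07), with 189 and 59 counts in ESC/LIF and 0 and 4 in 2iS. Reads of this pair of genes cannot be told apart by their listing alone.

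Ank1 encodes ankyrin 1, which ties membrane proteins to the spectrin skeleton. It was at 489.6 and 94.4 CPM in ESC/LIF and 8.19 and 0 CPM in 2iS, so the clones differed from each other in ESC/LIF while both 2iS libraries held at most 1 read pair. Its log2 fold change was -5.91 ± 0.74, and without the ESC/LIF library of clone 1 it was -4.34 and no longer passed (adjusted p = 0.0591). It was -6.73 without the ESC/LIF library of clone 17, -8.62 without the 2iS library of clone 1 and -5.18 without that of clone 17. Exons of Gm15816 overlap 6.37% of its exon bases on the other strand.

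Il17d, a cytokine of the interleukin 17 family, has no opposite-strand exons and was at 249 and 283 CPM in ESC/LIF and 16.4 and 14.1 CPM in 2iS (log2 fold change -4.06 ± 0.53, adjusted p = 1.53e-05). It remained past the threshold in all of the fits that left out 1 library. Col18a1, which encodes the basement membrane collagen that gives rise to endostatin, was at 339 and 283 CPM in ESC/LIF and 32.8 and 77.8 CPM in 2iS (log2 fold change -2.48 ± 0.42, adjusted p = 0.000581). The groups did not overlap, with the 2iS library of clone 17 the closer of the pair to ESC/LIF, and without it the log2 fold change of Col18a1 was -3.24.

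Basp1 and Kif3c completed the lower genes. Basp1, a membrane-bound protein of growing neurites that also acts as a transcriptional corepressor, was at 704 and 965 CPM in ESC/LIF and 156 and 375 CPM in 2iS (log2 fold change -1.71 ± 0.35, adjusted p = 0.00287). The call was lost without the ESC/LIF library of clone 17 (adjusted p = 0.0665) or the 2iS library of clone 1 (adjusted p = 0.187), and the log2 fold change was -2.39 without the 2iS library of clone 17. Kif3c, a kinesin motor subunit, showed the smallest change of the 8, at 2839 and 2991 CPM in ESC/LIF and 1679.5 and 1372 CPM in 2iS (log2 fold change -0.94 ± 0.20, adjusted p = 0.00527), and missed the threshold without the 2iS library of clone 17 (adjusted p = 0.0874). Exons on the opposite strand, mostly of 1110002L01Rik, cover 43.3% of its exon bases, and that gene had 17 and 7 counts in ESC/LIF and 5 and 9 in 2iS, too few to test.

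The 2 study-named genes that were higher in 2iS have no opposite-strand exons. Adcy9 encodes an adenylyl cyclase of the plasma membrane, an enzyme that makes cyclic AMP. It was at 0 and 21 CPM in ESC/LIF and 311 and 148 CPM in 2iS (log2 fold change 5.13 ± 0.76, adjusted p = 8.97e-05), which is 0 and 2 counts against 38 and 21. The ratio of summed counts, 2iS over ESC/LIF, was 36.7 (95% counting interval 9.73 to 310). Stmn2, a stathmin that binds tubulin and is best known from neurons, was at 8.59 and 10.5 CPM in ESC/LIF and 90.1 and 141 CPM in 2iS (log2 fold change 3.42 ± 0.68, adjusted p = 0.00253). It rested on 3 counts in ESC/LIF and 31 in 2iS, and did not pass without the ESC/LIF library of clone 1 (adjusted p = 0.0801). Adcy9 passed in each fit without 1 library, with a log2 fold change of 3.38 without the ESC/LIF library of clone 1, 8.11 without that of clone 17 and 4.40 without the 2iS library of clone 1. Of the 8 genes set for this comparison DESeq2 called 5. It gave Adcy9 an adjusted p of 0.612 and Col18a1 of 0.0902, and it gave Stmn2 none.

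**Figure D2:**
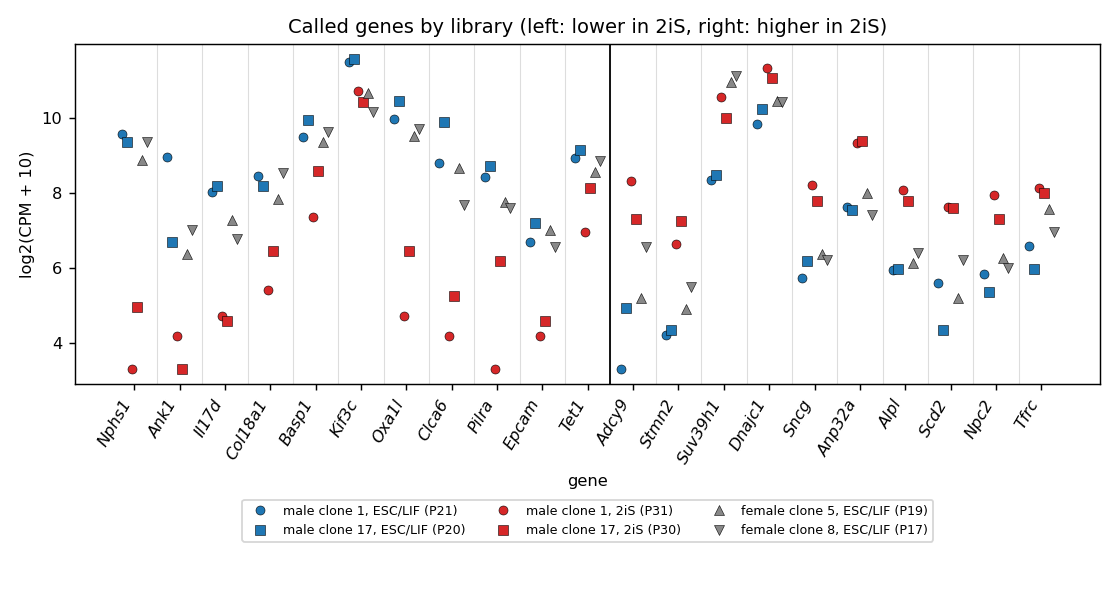
Levels of 21 called genes as log2(CPM + 10) in the 4 male libraries (circles, clone 1; squares, clone 17; blue, ESC/LIF; red, 2iS) and the 2 female 129S1/SvImJ libraries in ESC/LIF (grey triangles). Left of the line all blue points lie above the red points, and right of it all lie below. The female points of Suv39h1 lie above its 2iS points.

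Of the lower genes with the smallest p, all but Il17d and Col18a1 share exon bases with a gene on the opposite strand. Oxa1l, which inserts proteins into the inner mitochondrial membrane, was at 988 and 1385 CPM in ESC/LIF and 16.4 and 77.8 CPM in 2iS (log2 fold change -4.64 ± 0.39, adjusted p = 3.87e-08). Its opposite-strand neighbour is Slc7a7, an amino acid transporter. Mterfd2, a mitochondrial ribosome assembly factor now called Mterf4, was at 1791 and 2214 CPM in ESC/LIF and 8.19 and 240.4 CPM in 2iS (log2 fold change -4.11 ± 0.41, adjusted p = 3.2e-07) and overlaps Sned1. Nt5c3l, a cytosolic nucleotidase that overlaps Fkbp10, was at 494 and 483 CPM in ESC/LIF and 65.5 and 84.8 CPM in 2iS (log2 fold change -2.69 ± 0.34, adjusted p = 1.09e-05). These genes kept their call in each fit without 1 library. The log2 fold change was -3.91 for Oxa1l and -3.06 for Mterfd2 without the 2iS library of clone 1, and -6.08 and -7.78 without that of clone 17.

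Several of the transcripts in this group are listed as antisense or noncoding partners of known genes. Gm15441, opposite to the thioredoxin inhibitor gene Txnip, was at 4402 and 3536 CPM in ESC/LIF and 942 and 969 CPM in 2iS (log2 fold change -2.05 ± 0.19, adjusted p = 1.86e-07). E230016M11Rik, opposite to the growth arrest gene Gadd45a, was at 1344 and 1773 CPM in ESC/LIF and 98.3 and 304 CPM in 2iS (log2 fold change -3.01 ± 0.29, adjusted p = 1.86e-07), and the change was -2.35 without the 2iS library of clone 1 and -3.96 without that of clone 17. 1700071M16Rik, opposite to Pla2g7, fell to 1 count in each 2iS library from 67 and 23 (log2 fold change -4.97 ± 0.65, adjusted p = 1.49e-05). C330022C24Rik, opposite to Urah and Scgb1c1, was also lower (log2 fold change -2.07 ± 0.31, adjusted p = 8.97e-05). Of the called genes that the annotation holds, 70 of 117 (59.8%) have opposite-strand exons, against 1165 of 2130 tested (54.7%). The share was 64.6% among lower genes and 50% among higher genes. Restricted to the 965 tested genes without such exons, the test called 53, of which 19 were higher and 34 lower.

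The remaining lower genes of smallest p were the epithelial chloride channel regulator gene Clca6 (log2 fold change -5.17 ± 0.68, adjusted p = 1.49e-05), the inhibitory immune receptor gene Pilra (log2 fold change -3.52 ± 0.55, adjusted p = 0.000218) and Ppp1r18, an actin-associated phosphatase regulator (log2 fold change -4.35 ± 0.77, adjusted p = 0.000808). Clca6 was at 434 and 944 CPM in ESC/LIF and 8.19 and 28.3 CPM in 2iS, and Pilra at 331 and 409 CPM in ESC/LIF and 0 and 63.6 CPM in 2iS. In both, the 2iS library of clone 17 held more reads than that of clone 1. Without the 2iS library of clone 17 the log2 fold change of Pilra was -8.75, and without that of clone 1 it was -2.51. For Clca6 these values were -6.18 and -4.51, and -4.46 without the ESC/LIF library of clone 17. Clca6 overlaps Gm16233, Pilra overlaps Zcwpw1 and Ppp1r18 overlaps Ppp1r18os.

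The higher genes of smallest p are given next, by what they are known to do. AW495222, listed as antisense to the glycine pathway gene Dmgdh, had the smallest p of the higher genes, with 2 and 1 counts in ESC/LIF and 42 and 45 in 2iS (log2 fold change 5.07 ± 0.60, adjusted p = 5.07e-06). Suv39h1, the X-linked methyltransferase that sets trimethylation of histone H3 lysine 9 in heterochromatin, was at 314 and 346 CPM in ESC/LIF and 1491 and 1004 CPM in 2iS (log2 fold change 1.94 ± 0.27, adjusted p = 3.95e-05), with Gm14820 on the other strand over 14.6% of its exon bases. Anp32a, an acidic nuclear phosphoprotein that binds histones, has no such partner and was at 189 and 178 CPM in ESC/LIF and 631 and 658 CPM in 2iS (log2 fold change 1.79 ± 0.30, adjusted p = 0.000395).

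Alpl, the alkaline phosphatase used as a stain for pluripotent colonies, was at 51.5 and 52.5 CPM in ESC/LIF and 262 and 212 CPM in 2iS (log2 fold change 2.21 ± 0.40, adjusted p = 0.00095). Scd2, a stearoyl-CoA desaturase, was at 38.7 and 10.5 CPM in ESC/LIF and 188 and 184 CPM in 2iS (log2 fold change 2.67 ± 0.49, adjusted p = 0.00104). Npc2, which hands cholesterol on in the lysosome, was at 47.2 and 31.5 CPM in ESC/LIF and 238 and 148 CPM in 2iS (log2 fold change 2.28 ± 0.43, adjusted p = 0.00136). In each of these both 2iS libraries lay above both ESC/LIF libraries. Tfrc, the transferrin receptor that takes up iron and is a chromosome 16 gene, was at 85.9 and 52.5 CPM in ESC/LIF and 270.4 and 247 CPM in 2iS (log2 fold change 1.84 ± 0.36, adjusted p = 0.00226). Npc2 missed the threshold without the 2iS library of clone 1 (adjusted p = 0.0698), while Alpl, Scd2 and Tfrc passed in each such fit, Scd2 with a log2 fold change of 4.04 without the ESC/LIF library of clone 1. DESeq2 gave these genes adjusted p-values of 0.242 to 0.489.

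Dnajc1, an endoplasmic reticulum co-chaperone, was at 902 and 1196 CPM in ESC/LIF and 2556 and 2114 CPM in 2iS (log2 fold change 1.18 ± 0.19, adjusted p = 0.000395), with Mllt10 on the other strand. Sncg, gamma-synuclein, was at 42.9 and 63 CPM in ESC/LIF and 287 and 212 CPM in 2iS (log2 fold change 2.34 ± 0.39, adjusted p = 0.000395). Trappc12, of a vesicle tethering complex, rose from 10 and 1 counts to 34 and 25 (log2 fold change 2.93 ± 0.56, adjusted p = 0.00163). Vwa7, opposite to Sapcd1, and the noncoding Gm17762 were also among the 15 (log2 fold change 1.99 ± 0.43, adjusted p = 0.00527 for Vwa7 and log2 fold change 3.00 ± 0.55, adjusted p = 0.00104 for Gm17762). RefSeq places the start of Gm17762 on the forward strand within the span of A930004D18Rik, a gene of the reverse strand that was called too (log2 fold change 2.38 ± 0.63, adjusted p = 0.0235). Trappc12 had a log2 fold change of 4.31 without the ESC/LIF library of clone 1, and Vwa7 of 3.08. Vwa7 lost its call without the 2iS library of clone 1 (adjusted p = 0.343) or the ESC/LIF library of clone 17 (adjusted p = 0.133).

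Of 29 naive pluripotency genes, 17 could be tested, and Klf4, Tbx3 and Tfcp2l1 passed the test, all higher in 2iS. Over all genes tested 1.85% were called higher. The list was chosen with earlier results known, so its count cannot be read against that share. Of the 17, 6 had a positive and 11 a negative log2 fold change, with a median of -0.12 against 0.01 over all genes tested. Tfcp2l1, a transcription factor downstream of both STAT3 and GSK3 inhibition, was at 142 and 105 CPM in ESC/LIF and 319.5 and 438 CPM in 2iS (log2 fold change 1.53 ± 0.39, adjusted p = 0.0174). Klf4, a STAT3 target that was also carried by the reprogramming virus, was at 163 and 115 CPM in ESC/LIF and 295 and 459.5 CPM in 2iS (log2 fold change 1.32 ± 0.37, adjusted p = 0.033). Reads of the virus cannot be told from those of the gene. The same limit holds for the levels of Pou5f1 (Oct4), Sox2 and Myc, which the virus also carried. Tbx3, a T-box factor that sustains the naive state, was at 98.8 and 94.4 CPM in ESC/LIF and 254 and 240.4 CPM in 2iS (log2 fold change 1.35 ± 0.40, adjusted p = 0.0457), with Tbx3os1 on the other strand.

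These calls stood close to the threshold. Klf4 and Tfcp2l1 each lost the call without the ESC/LIF library of clone 1, the ESC/LIF library of clone 17 or the 2iS library of clone 17 (adjusted p of 0.0938, 0.118 and 0.268 for Klf4 and 0.0801, 0.0727 and 0.119 for Tfcp2l1). Tbx3 lost it without any 1 of the 4 libraries (adjusted p of 0.111 to 0.272). DESeq2 called none of these genes, with adjusted p-values of 0.721 for Klf4, 0.448 for Tfcp2l1 and 1.00 for Tbx3. In each of these fits the log2 fold change stayed positive.

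The other pluripotency genes did not pass the test. Pou5f1 had a log2 fold change of -0.15 ± 0.23, Sox2 of -0.05 ± 0.30, Zfp42 of -0.43 ± 0.27 and Dppa5a of -0.12 ± 0.29, and these were the most abundant members of the list. Esrrb, an orphan nuclear receptor repressed by TCF7L1, was at 228 and 241 CPM in ESC/LIF and 262 and 297 CPM in 2iS (log2 fold change 0.25 ± 0.30, adjusted p = 0.802). Gbx2 had the lowest value, at 77.3 and 136 CPM in ESC/LIF and 32.8 and 42.4 CPM in 2iS (log2 fold change -1.47 ± 0.61, adjusted p = 0.199). The summed level of the whole list was 4544 and 4197 CPM in ESC/LIF and 4211 and 4758 CPM in 2iS, and the media overlapped.

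**Figure D3:**
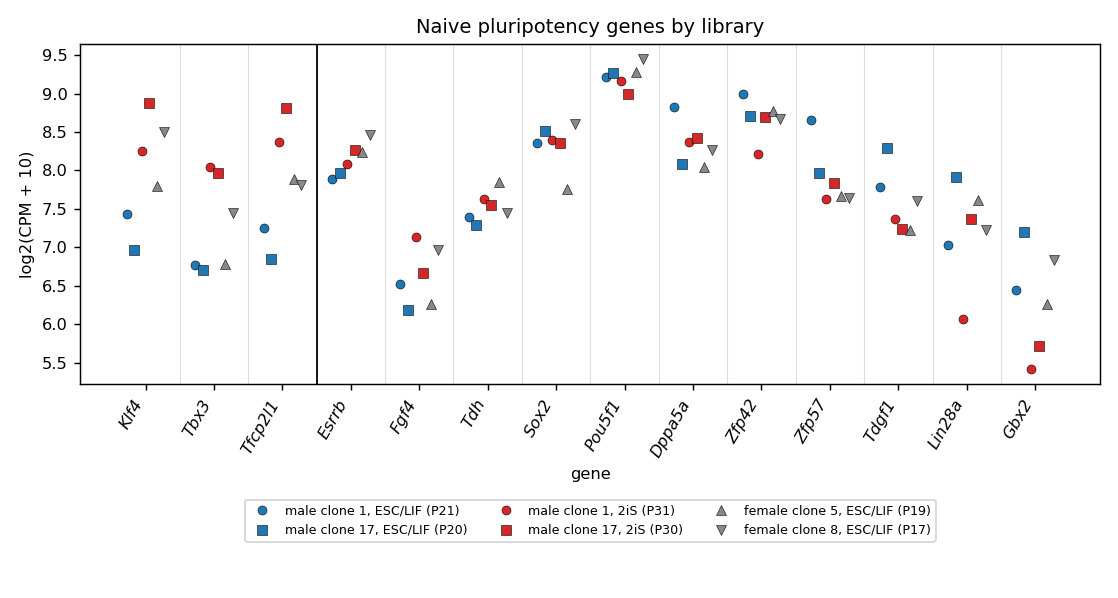
Levels of 14 naive pluripotency genes as log2(CPM + 10), with the 4 male libraries and the 2 female 129S1/SvImJ libraries in ESC/LIF marked as in the plot of called genes. Klf4, Tbx3 and Tfcp2l1, left of the line, passed the test. The other 11 genes did not, and the levels of Dppa5a and Sox2 overlap between the media.

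LIF/STAT3 pathway genes were represented by 7 tested members of 21, of which Klf4 and Tfcp2l1 were called and none was lower past the threshold. Both also belong to the naive list, and their count here has the same limit. Jak1, the kinase bound to the LIF receptor, was at 185 and 157 CPM in ESC/LIF and 81.9 and 84.8 CPM in 2iS (log2 fold change -1.04 ± 0.41, adjusted p = 0.171). The median of the list was 0.06. Summed over the list, the level was 1387 and 1385 CPM in ESC/LIF and 1630 and 1760 CPM in 2iS. The higher sum in 2iS came from Klf4 and Tfcp2l1, and the other members together were not higher there. Reads listed under Klf4 may also come from the virus.

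Output genes of MEK and ERK, the kinases that one inhibitor of 2iS acts on, were sparse in these libraries. Of 30 members 5 could be tested and 0 were called by edgeR, with a median log2 fold change of -0.68. Spry4, a feedback inhibitor of receptor tyrosine kinase signalling, had 20 and 8 counts in ESC/LIF and 1 and 4 in 2iS (log2 fold change -2.19 ± 0.79, adjusted p = 0.124). Ccnd1, cyclin D1, was at 94.5 and 105 CPM in ESC/LIF and 24.6 and 77.8 CPM in 2iS (log2 fold change -1.03 ± 0.53, adjusted p = 0.348), and Epha2 at 94.5 and 115 CPM in ESC/LIF and 65.5 and 63.6 CPM in 2iS (log2 fold change -0.68 ± 0.48, adjusted p = 0.578). Myc and Etv5 had log2 fold changes of -0.13 ± 0.35 and 0.05 ± 0.46. The summed level of the 30 genes was 1065 and 1049 CPM in ESC/LIF and 680 and 672 CPM in 2iS, so both 2iS libraries lay below both ESC/LIF libraries. Of all genes tested, 46.3% did not overlap between the media in either direction, so such a separation is common here. In this list 5 members had no read in any of the 4 libraries. Components of the FGF and MAPK pathway had 5 of 27 members tested and 0 called, 4 of the 5 with a positive log2 fold change and a median of 0.20. Map2k1, which encodes MEK1, was at 30.1 and 73.5 CPM in ESC/LIF and 123 and 84.8 CPM in 2iS (log2 fold change 1.19 ± 0.62, adjusted p = 0.358).

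Target genes of Wnt and beta-catenin could hardly be read at this depth, as 1 of 29 was tested and 0 were called. Axin2, the usual reporter of this pathway, had 2 and 2 counts in ESC/LIF and 2 and 7 in 2iS, and Fzd7 had 5 and 4 counts against 1 and 4. The summed level of the 29 genes was 223 and 357 CPM in ESC/LIF and 131 and 219 CPM in 2iS, and 11 of them had no read. Pathway components had 6 of 27 members tested and 0 called, with a median of -0.28. Ctnnb1, beta-catenin itself, had a log2 fold change of -0.40 ± 0.36, Cdh1, which binds it at the membrane, of -0.59 ± 0.31 and Gsk3a of -0.16 ± 0.29. No difference was detectable at this depth in those genes.

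Genes of the formative and primed epiblast were all negative where they could be tested, and 0 of the 4 tested members of 24 were called. Dnmt3b had a log2 fold change of -0.86 ± 0.50, Dnmt3l of -0.97 ± 0.46 and Foxd3 of -0.37 ± 0.41, and the median of the 4 was -0.91. The list summed to 876 and 902 CPM in ESC/LIF and to 377 and 580 CPM in 2iS. Both 2iS libraries were below both ESC/LIF libraries in that sum, while 46.3% of all genes tested did not overlap between the media in either direction. Fgf5 and Cer1, which define primed cells, had no read in the 4 libraries. Of 25 lineage markers of gastrulation 0 could be tested and 12 had no read, and the list summed to 7 to 14 counts per library.

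Of the writers and erasers of DNA methylation, 10 of 20 were tested, and Tet1 was called, lower in 2iS. Tet1 oxidises methylcytosine and was at 481 and 556 CPM in ESC/LIF and 115 and 269 CPM in 2iS (log2 fold change -1.49 ± 0.30, adjusted p = 0.00274), with no exons opposite to it. Without the 2iS library of clone 1 it did not pass (adjusted p = 0.199), nor did it in DESeq2 (adjusted p = 0.265), and without that of clone 17 its log2 fold change was -2.15. Dnmt1, the maintenance methyltransferase, had a log2 fold change of -0.01 ± 0.31, its partner Uhrf1 of 0.92 ± 0.40 and Tet2 of 0.60 ± 0.36, none of which passed. Sycp1, a protein of the meiotic synaptonemal complex, was the 1 tested member of 26 germline genes silenced by methylation, and it was lower in 2iS, at 185 and 336 CPM in ESC/LIF and 49.2 and 77.8 CPM in 2iS (log2 fold change -2.01 ± 0.47, adjusted p = 0.0101). The call of Sycp1 was lost without the ESC/LIF library of clone 17 (adjusted p = 0.146), the 2iS library of clone 1 (adjusted p = 0.187) or that of clone 17 (adjusted p = 0.0619). Rhox5, of the same list, had 0 and 1 counts in ESC/LIF and 9 and 6 in 2iS, too few to test. Genes of the 2-cell-like state summed to 10 to 24 counts per library, and 1 of 17 was tested and 0 called.

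Cytoskeleton and neurite genes gave 4 calls among 8 tested of 31, namely Ank1, Basp1 and Kif3c lower and Stmn2 higher. All of them belong to the 8 genes picked on the same samples, and the lists were chosen with earlier results known. The count therefore cannot be read against the 5.56% called over all genes. Marcksl1, Map1b, Stmn1 and Tuba1a had log2 fold changes of 0.50 ± 0.30, -0.27 ± 0.34, -0.60 ± 0.52 and 0.10 ± 0.42 and did not pass. In the nephrin and slit diaphragm group, 2 of 5 tested members of 13 were called, Nphs1 and Actn4, both lower. Nphs1 is 1 of the genes picked on the same samples, so this count has the same limit. That limit extends to the lists below that hold Adcy9 and Col18a1. All lists were chosen with earlier results known. No count of called members in a list can therefore be read against the share over all genes tested. Actn4, which crosslinks actin, was at 408 and 451 CPM in ESC/LIF and 156 and 226 CPM in 2iS (log2 fold change -1.18 ± 0.31, adjusted p = 0.0222). It shares exon bases with Capn12 on the other strand, and Capn12 was called too (log2 fold change -0.95 ± 0.22, adjusted p = 0.00761). The call of Actn4 was lost without any 1 of the 4 libraries (adjusted p of 0.0507 to 0.293). Kirrel and Tjp1, a binding partner and a scaffold of nephrin, had log2 fold changes of 0.27 ± 0.44 and -0.03 ± 0.46.

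Cyclic AMP genes had 5 of 25 members tested, and Adcy9 was the 1 called. Adcy3, another adenylyl cyclase, was at 193 and 168 CPM in ESC/LIF and 107 and 77.8 CPM in 2iS (log2 fold change -0.96 ± 0.44, adjusted p = 0.278), in the opposite direction and short of the threshold. Akap12, an anchor of protein kinase A, was abundant and had a log2 fold change of 0.19 ± 0.20. Among apoptosis genes 3 of 26 were tested, and Mcl1 was called. Mcl1, a BCL2 family protein that keeps cells alive, was at 210.4 and 315 CPM in ESC/LIF and 98.3 and 120.2 CPM in 2iS (log2 fold change -1.24 ± 0.34, adjusted p = 0.0312), and missed the threshold without any 1 of the 4 libraries (adjusted p of 0.0533 to 0.294). Trp53 and its ligase Mdm2 had log2 fold changes of 0.19 ± 0.42 and -0.39 ± 0.44.

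Matrix genes had 10 of 25 members tested, with Col18a1 lower and Nid1 higher. Nid1, nidogen, links laminin to collagen IV in basement membranes and was at 81.6 and 21 CPM in ESC/LIF and 213 and 219 CPM in 2iS (log2 fold change 1.89 ± 0.52, adjusted p = 0.0296), with Gm48682 on the other strand. Its call was lost without the ESC/LIF library of clone 17 (adjusted p = 0.181), the 2iS library of clone 1 (adjusted p = 0.113) or that of clone 17 (adjusted p = 0.109), and without the ESC/LIF library of clone 1 its log2 fold change was 3.31. Lamc1 and Lama5, laminin chains, had log2 fold changes of 0.67 ± 0.30 and 0.77 ± 0.33, and Fn1 of 0.13 ± 0.26.

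No member was called among 15 tested cell cycle genes of 28, 10 tested glycolysis genes of 21 or 3 tested cholesterol synthesis genes of 22, and BMP and Id genes were too low to test. Medians were 0.10 for the cell cycle, 0.04 for glycolysis and -0.43 for cholesterol synthesis. Ccna2, cyclin A2, had a log2 fold change of 0.08 ± 0.22, Mki67 of -0.33 ± 0.31, Pkm of 0.12 ± 0.24 and Pfkp, a phosphofructokinase, of 0.71 ± 0.29. The smallest adjusted p in these 3 lists was 0.193, that of Pfkp. In the lists without a call, edgeR's unadjusted p was under 0.05 for 1 member each of the MEK and ERK output (Spry4), epiblast (Dnmt3l), glycolysis (Pfkp) and cholesterol lists and for 0 members of the others, and DESeq2 called 0 of their members.

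**Figure D4:**
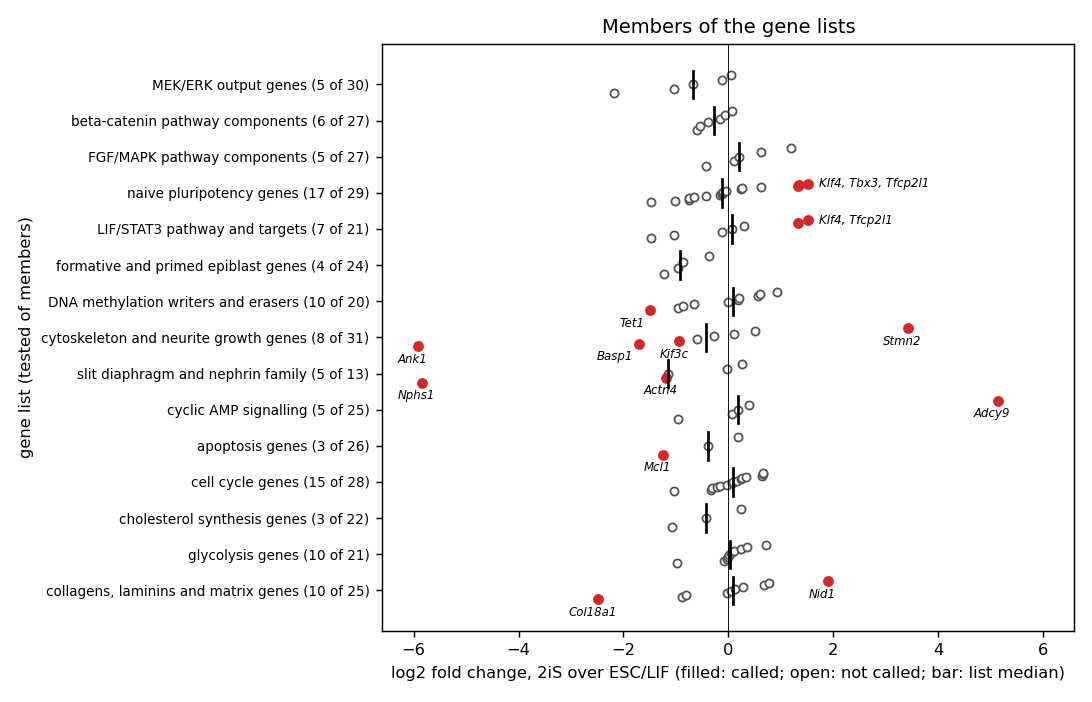
Log2 fold change, 2iS over ESC/LIF, of the tested members of each list with at least 3 tested members; filled red points passed the test, open points did not, and the black bar is the list median. The MEK/ERK output and epiblast lists lie mostly left of 0, with no filled point.

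Some called genes outside the lists are named here after their values were seen. No list of imprinted genes was tested, so the following ones are examples and their number cannot be read against the 5.56% called over all genes. Peg10, Zdbf2 and Plagl1 are expressed from the paternal copy alone, and Peg3as is listed as antisense to the imprinted Peg3. Peg10 was at 206 and 252 CPM in ESC/LIF and 0 and 21.2 CPM in 2iS (log2 fold change -4.28 ± 0.86, adjusted p = 0.00253), Zdbf2 was lower (log2 fold change -1.65 ± 0.47, adjusted p = 0.0374) and Peg3as was lower (log2 fold change -1.22 ± 0.27, adjusted p = 0.00585). Plagl1 went the other way, at 25.8 and 42 CPM in ESC/LIF and 81.9 and 191 CPM in 2iS (log2 fold change 1.90 ± 0.54, adjusted p = 0.0366). Zdbf2 and Plagl1 share exon bases with Gm24513 and Gm27741 on the other strand. Peg10 kept its call in each fit that left out 1 library, with a log2 fold change of -3.36 without the 2iS library of clone 1 and -8.06 without that of clone 17. Without the 2iS library of clone 1 that of Zdbf2 was -3.23 and that of Plagl1 was 2.59. Zdbf2 and Plagl1 lost theirs without the ESC/LIF library of clone 1 (adjusted p = 0.376 and 0.373) or the 2iS library of clone 17 (adjusted p = 0.432 and 0.39), and Peg3as without the ESC/LIF library of clone 17 (adjusted p = 0.193) or either 2iS library (adjusted p = 0.0973 and 0.0668).

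A further 4 called genes were chosen in the same way, for what each is known to do, and stand for no group. Jarid2, a partner of Polycomb repressive complex 2, was at 348 and 472 CPM in ESC/LIF and 73.7 and 184 CPM in 2iS (log2 fold change -1.71 ± 0.35, adjusted p = 0.00274) and lost its call without the 2iS library of clone 1 (adjusted p = 0.191) or the ESC/LIF library of clone 17 (adjusted p = 0.0601), and its log2 fold change was -2.42 without the 2iS library of clone 17. Arid1a, a subunit of the BAF remodelling complex, was lower (log2 fold change -1.09 ± 0.31, adjusted p = 0.0366). It lost its call in the fit of 12 libraries once the clone block was left out, and DESeq2 did not call it. Its log2 fold change was -0.66 without the 2iS library of clone 1 and -1.52 without that of clone 17. Epcam, the epithelial adhesion molecule of pluripotent cells, was at 94.5 and 136 CPM in ESC/LIF and 8.19 and 14.1 CPM in 2iS (log2 fold change -3.27 ± 0.66, adjusted p = 0.00269) and was just outside the threshold without the 2iS library of clone 1 (adjusted p = 0.0513). Sfrp1, a secreted antagonist of Wnt ligands, was higher, at 25.8 and 21 CPM in ESC/LIF and 147 and 99 CPM in 2iS (log2 fold change 2.39 ± 0.55, adjusted p = 0.00796), with no call without the ESC/LIF library of clone 1 (adjusted p = 0.138) or the 2iS library of clone 1 (adjusted p = 0.119).

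Female 129S1/SvImJ clones in ESC/LIF gave a further look at each called gene, though they differ in sex and in clone and shared in the estimate of the spread. For 72 of the 80 lower genes (90%), both female libraries lay on the ESC/LIF side, that is, above both male 2iS libraries. For 32 of the 40 higher genes (80%) both lay below both 2iS libraries. Among tested genes that did not overlap between the media and were not called, the shares were 51.7% of 414 lower genes and 55.2% of 466 higher genes. Called genes were selected for larger changes, which by itself raises their shares, so the shares are a description and were not tested. Nphs1 was at 460.2 and 647 CPM in the female libraries, Il17d at 147 and 99.5 CPM, Adcy9 at 26.7 and 84.6 CPM and Stmn2 at 20 and 34.8 CPM. All of these levels lie between the male ESC/LIF and the male 2iS libraries. Suv39h1 went against this, at 1988 and 2205 CPM in the females, above both male 2iS libraries, as did 6330408A02Rik, A230070E04Rik, Adprh and Dopey2. Klf4 was at 213 and 353 CPM, and the second of these lies between the male 2iS libraries.

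The inhibitors of 2iS bear on transcription factors with known DNA motifs, so promoters of called genes were searched on both strands for the TCF/LEF motif CTTTGAT, the ETS motif CCGGAAG and the ESRRB motif TCAAGGTCA. Promoters are the RefSeq windows on GRCm38.p6 from 250 bases before to 50 after each start. The TCF/LEF motif was in 3 of 37 promoters of higher genes (8.11%; Bcat1, Mroh2a and Npc2) and 2.27% of 88 promoters of lower genes, against 2.81% of promoters of tested genes and 3.73% of all promoters. The ETS motif, which ERK-activated factors bind, was in 18.9% of promoters of higher genes and 9.09% of those of lower genes, against 19.7% of tested and 8.86% of all. The ESRRB motif was in none of either group and in 0.423% of all promoters. A match is a description of the letters and not a site in use.

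Stretches upstream of the starts of 3 called genes are printed to show the matches in place, 5′ to 3′ on the strand of the gene with the motif letters in capitals. Npc2 is the called gene whose promoter held both motifs (chr12:84773155-84773262, reverse strand), Mroh2a held the TCF/LEF motif at 2 places (chr1:88226810-88226939, forward strand) and Mcl1 held the ETS motif (chr3:95658610-95658710, forward strand).
Npc2: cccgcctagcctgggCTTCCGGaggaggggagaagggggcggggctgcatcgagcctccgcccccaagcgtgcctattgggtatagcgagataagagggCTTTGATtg
Mroh2a: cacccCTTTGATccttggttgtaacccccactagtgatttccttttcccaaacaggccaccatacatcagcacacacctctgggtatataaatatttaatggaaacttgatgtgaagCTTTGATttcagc
Mcl1: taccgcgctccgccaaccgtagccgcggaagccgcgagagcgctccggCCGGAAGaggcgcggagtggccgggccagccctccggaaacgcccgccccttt
In Npc2 the ETS letters are those of the other strand. Npc2 and Mroh2a were higher in 2iS and Mcl1 was lower. Mroh2a (log2 fold change 0.93 ± 0.25, adjusted p = 0.0296) lost its call in the fit of 12 libraries once the clone block was left out. Its log2 fold change was 0.36 without the ESC/LIF library of clone 17 and 1.67 without that of clone 1. Mroh2a was named for its motifs after its value was seen, as was Bcat1 (log2 fold change 1.26 ± 0.34, adjusted p = 0.0288). Bcat1 has Gm26666 on the other strand, and its log2 fold change was 0.98 without the ESC/LIF library of clone 17 and 1.82 without that of clone 1. DESeq2 called neither Mroh2a nor Bcat1.

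Called genes were spread over the chromosomes, and the later passage of the 2iS libraries makes the median of each chromosome of interest. Medians of tested genes lay between -0.12 (X) and 0.22 (chromosome 16) in clone 1 and between -0.09 (chromosome 8) and 0.25 (chromosome 16) in clone 17. Chromosome 16 had the highest median in both clones, over 73 tested genes, and its 5 called genes (6.85%), Adcy9, Tfrc, Adprh, Dopey2 and Tvp23a, were all higher in 2iS. Called genes made up 9.15% of 164 tested on chromosome 7, 10.3% of 68 on chromosome 12 and 9.33% of 75 on chromosome 14, against 5.56% over all genes. The 13 lower and 2 higher called genes of chromosome 7 include the Nphs1 and Actn4 pairs of overlapping genes. Genes of chromosome Y, summed over 4 genes, gave 30 and 17 counts in ESC/LIF and 9 and 13 in 2iS, which is 129 and 178 CPM against 73.7 and 91.9 CPM. Both 2iS libraries lay below both ESC/LIF libraries in that sum, with reads in all 4 and too few to test. Among all genes tested, 46.3% did not overlap between the media in either direction.

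**Figure D5:**
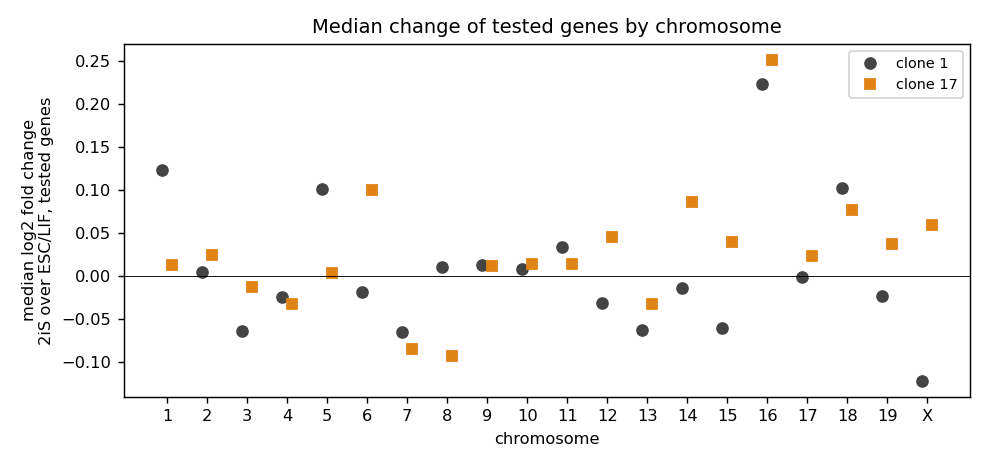
Median log2 fold change, 2iS over ESC/LIF, of tested genes on each chromosome in clone 1 (circles) and clone 17 (squares); chromosome Y had no tested gene. Chromosome 16 lies at 0.22 and 0.25, above every other chromosome in both clones.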

How the data were processed

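RNA of 4 male 129S1/SvImJ iPSC libraries was compared, grouped by sample title, since source names and characteristics name other conditions. The authors aligned read pairs to GRCm38 with TopHat 2.1.1, counted them with HTSeq (intersection-nonempty), and deposited raw counts of read pairs for 23420 genes. Rows on no gene (98.5% to 98.6% of uniquely aligned pairs) or several genes were left out. Depth was 92996 to 226794 counts. Intervals and floors cover counting error only. In edgeR 4.0.16 (R 4.3.3; TMM, filterByExpr, glmQLFit, glmQLFTest), 12 iPSC libraries in 6 groups shared 1 estimate of the spread, with the clone as a block in the 4 libraries, since the titles give the same clone in both media. Clone differences in the 2 media correlated at r = 0.07 over genes. Genes with a Benjamini-Hochberg adjusted p under 0.05 were called, and values are log2 fold change ± SE. CPM include the TMM factors. DESeq2 1.42.0, other scalings, filters and omitted libraries were alternatives. The members and gene lists were chosen with earlier results of these data known. Named were the study-named genes, up to 15 called genes of smallest p in each direction, called list members and the most abundant 4 members of each list, with opposite-strand partners; a few are not reported here. Genes were placed by GENCODE M21, 21777 by symbol and 1274 by an older symbol, and 369 had no match. The models were tested on simulated data.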

Additional observations from a re-analysis of the deposited data

How the results depend on the processing

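No result of the comparison reversed. The count of 120 called genes (40 higher, 80 lower) became 123 without the clone block, so the pairing changed few calls (115 shared), and of the named genes Arid1a, Mroh2a and Tbc1d10b lost the call without it. With the 4 libraries fitted alone it was 188 (66 higher, 122 lower) with the block and 192 (63 higher, 129 lower) without it. DESeq2 gave 22 (4 higher, 18 lower), at least 10 counts in each library gave 30 (8 higher, 22 lower), genes without opposite-strand exons gave 53 (19 higher, 34 lower), and an adjusted p under 0.01, chosen after seeing the data, gave 63 (17 higher, 46 lower). Leaving out 1 library gave 54 to 80 called genes (16 to 23 higher, 38 to 57 lower). Leaving out clone 1 gave 20 (3 higher, 17 lower) and leaving out clone 17 gave 55 (17 higher, 38 lower). In those fits, which had no clone block, a lone library is assumed to vary like the other groups. DESeq2's size factors (119), aligned pairs as library size (112), no filter (153), an adjusted p under 0.1 (167) and a log2 fold change of at least 1 (107) stayed within 1.5 times. Between the clones, 0 genes became 1 with the 4 libraries alone. Of the 120 genes, 11 passed in every setting that gave them a value. Levels under 12.9 to 31.5 CPM rest on fewer than 3 counts.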

Other observations

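Chromosome 16 was looked at again on another scale, chosen after seeing its median. The median of log2(CPM + 10) minus the mean of the 2 male ESC/LIF libraries, over its 73 tested genes, was 0.17 in the 2iS library of clone 1 and 0.16 in that of clone 17. The other chromosomes ranged from -0.10 to 0.11 and from -0.10 to 0.16 in the same libraries, so in clone 17 another chromosome reached the same value. In the female libraries in ESC/LIF chromosome 16 was at 0.06 and 0.00.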
